A study of Mus musculus with 6 samples.

Results

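The pancreatic acinar genes described here are transcripts for digestive enzymes and other zymogen granule proteins, together with transcription factors that maintain the acinar cell. A list of 40 gene symbols was matched to the symbol column of the count table, and 38 of the 22183 genes in the table were found. Ctrc and Amy2b were not analysed here. The list was drawn up knowing that most of its genes stood high in PD mice against saline mice in these same libraries. The values of this contrast thus chose the genes, and for them it is a description without a test. The libraries came from wild-type (WT) male C57BL/6J mice aged 8 to 10 weeks at the start. The saline mice (n = 3) received an intraperitoneal injection of saline every day for 6 weeks, and the PD mice (n = 3) received high-glucose peritoneal dialysis (PD) fluid by the same route for the same time. Peritoneal endothelial cells (ECs) were taken from these mice and their polyadenylated RNA was sequenced. The labels describe magnetic sorting on CD31 (the endothelial adhesion molecule encoded by Pecam1). The study's methods describe mesentery along the small intestine that was digested with collagenase and then sorted by fluorescence for CD31+ CD45- cells. By the study's methods the sequenced cells came from 3 mice of each group, so each library is taken as that of a separate mouse.

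Acinar cells make up most of the exocrine pancreas and secrete amylase, lipases, nucleases and the inactive precursors of proteases into the pancreatic duct. The enzymes are packed in zymogen granules and released when the cell is stimulated, for example by cholecystokinin. Their genes are switched on together by PTF1A with its partner RBPJL, by NR5A2 and by BHLHA15 (MIST1), and acinar RNA is dominated by a small number of very abundant enzyme transcripts. In mice the pancreas lies diffusely within the mesentery, beside the vessels of the small intestine.

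The 6 libraries held between 21973426 and 26374292 counts. Of the 14005 genes tested with edgeR's quasi-likelihood test, 8246 (58.9%) passed an adjusted p of 0.05, 4359 (31.1%) higher and 3887 (27.8%) lower in PD mice. All 12 endothelial markers checked were detected in every mouse, but at very different levels, given here as counts scaled to a library of 1e+06 (CPM). Pecam1 was the highest, with a group mean of 469 CPM (saline) and 514 CPM (PD). Erg was the lowest, at 1.97 CPM (saline) and 3.89 CPM (PD), and Cdh5 averaged 18.9 CPM (saline) and 33.3 CPM (PD). Ptprc encodes CD45, the leukocyte antigen that the fluorescence sort of the study's methods removes. The magnetic sort of the labels names only CD31, and which sort was used for the sequenced cells is not known here. Ptprc was abundant, at 2373 ± 127 CPM (SD, n = 3) in the saline group and 1473 ± 63.6 CPM in the PD group.

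Acinar transcripts were nearly absent from the libraries of the saline mice and abundant in those of the PD mice. The 38 genes together held 263, 392 and 290 counts in saline mice 1, 2 and 3, and 672363, 650595 and 633773 counts in PD mice 1, 2 and 3. As a share of all counts this was 0.00134% ± 0.000396 (SD, n = 3) in saline mice and 2.70% ± 0.132 in PD mice. Each PD library was alike in this respect, with shares of 2.55%, 2.74% and 2.80%, and no saline mouse came near them. The exact 95% binomial interval of the highest saline share ran from 0.00161% to 0.00197%, and that of the lowest PD share from 2.54% to 2.56%. All such intervals cover counting error only. In bulk RNA, the number of acinar cells in a sample and the amount of acinar RNA in each cell cannot be told apart.

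**Figure D1:**
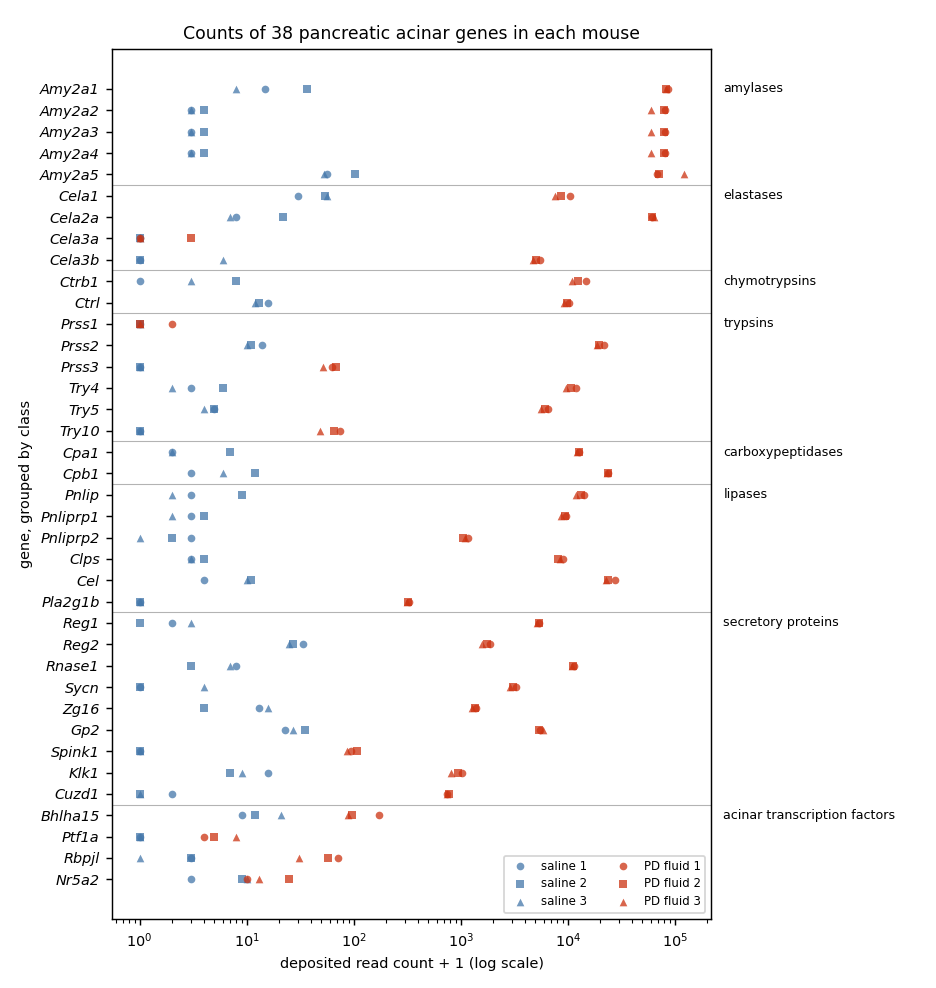
Deposited read count plus 1 of each of the 38 acinar genes (rows, grouped by class) on a log axis, with saline mice in blue and PD mice in red and a marker shape for each replicate number. The red points lie to the right of all blue points for 35 genes, and the points overlap for Cela3a, Prss1 and Nr5a2.

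Of the 38 genes, 34 had enough counts to enter the test, and all 34 were called higher in PD mice, beside 31.1% of all tested genes. The 4 genes that did not enter were Cela3a, Prss1, Ptf1a and Nr5a2. In 35 of the 38 the lowest PD mouse lay above the highest saline mouse, beside 34.0% of the tested genes that were separated in this direction. Both counts follow from how the list was chosen and nothing was read from them. Because counts in saline mice were so few, changes are given below as ratios of the summed counts of the 3 PD mice to those of the 3 saline mice, corrected for library size by TMM (trimmed mean of M values), with a 95% interval for counting error. The saline counts were 0 in all 3 mice for 7 genes and 3 or fewer in total for 11. For a gene at 0 in every saline mouse the ratio is a lower bound computed against 3 counts over the whole saline group. The median log2 fold change fitted by edgeR was 11.20 over the 34 tested genes, and 10.95 with the 4 tested genes that were at 0 in saline mice set at their lower bound, while over all 14005 tested genes it was 0.02.

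Pancreatic alpha-amylases, which cut starch, gave the largest part of the acinar counts. The 5 genes found lie in a row on the minus strand of chromosome 3 (GRCm38, positions from GENCODE M21): Amy2a5 at chr3:113247178-113258837, Amy2a4 at chr3:113279843-113291449, Amy2a3 at chr3:113312455-113324052, Amy2a2 at chr3:113345055-113356658 and Amy2a1 at chr3:113529403-113532428. The first 250 bases upstream of their annotated starts show how alike the copies are, and they are printed because the counts of the copies cannot be read apart without knowing it. They come from RefSeq (build GRCm38.p6), 5′ to 3′ on the strand of the gene, and capitals in this and the later set mark 3 motifs on either strand. The first is the E-box CACCTG, which reads as CAGGTG where it lies on the other strand. The next is the E-box CAGCTG, which reads the same on both strands. The last is TTTCCC, the core of an RBPJ-type site, which reads as GGGAAA where it lies on the other strand.
Amy2a2 (chr3:113356659-113356908, minus strand): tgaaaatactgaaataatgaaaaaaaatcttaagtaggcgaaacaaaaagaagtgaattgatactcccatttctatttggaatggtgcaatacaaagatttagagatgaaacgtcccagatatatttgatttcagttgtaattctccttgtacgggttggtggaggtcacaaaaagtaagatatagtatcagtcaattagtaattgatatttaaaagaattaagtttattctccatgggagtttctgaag
Amy2a1 (chr3:113532429-113532678, minus strand): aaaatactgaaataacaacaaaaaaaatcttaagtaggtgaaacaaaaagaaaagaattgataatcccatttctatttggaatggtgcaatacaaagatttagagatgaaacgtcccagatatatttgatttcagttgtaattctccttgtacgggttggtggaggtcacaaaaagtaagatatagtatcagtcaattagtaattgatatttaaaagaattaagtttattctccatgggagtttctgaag
Amy2a5 (chr3:113258700-113258949, minus strand): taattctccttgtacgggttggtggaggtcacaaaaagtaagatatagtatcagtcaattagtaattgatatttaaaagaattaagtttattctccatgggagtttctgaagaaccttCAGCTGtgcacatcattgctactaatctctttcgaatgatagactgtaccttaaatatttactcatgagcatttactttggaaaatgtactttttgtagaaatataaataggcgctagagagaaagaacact
The windows of Amy2a3 (chr3:113324053-113324302) and Amy2a4 (chr3:113291450-113291699) are the same letters as that of Amy2a2. The longest run that the Amy2a1 window shares with the Amy2a2 window is 186 bases. For Amy2a5 it is 112 bases, shifted by 138 bases because its RefSeq start lies further along the gene, and the stretch that is then added holds a CAGCTG.

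The transcripts of Amy2a2, Amy2a3 and Amy2a4 in GENCODE M21, each 3717 bases long, shared every window of 100 bases, and their deposited counts were the same number in every mouse. Each of these 3 rows read 2, 3 and 2 counts in saline mice 1 to 3 and 81819, 79863 and 59702 counts in PD mice 1 to 3. The ratio was 30910 (95% interval 15002 to 76882), and these were the only identical rows among the 38 genes. Amy2a5, which shares 47.4% of its 100-base windows with the other copies, read 56, 101 and 52 counts in saline mice and 67753, 71272 and 122512 in PD mice, a ratio of 1223 (1068 to 1407). Amy2a1, whose annotated transcript of 890 bases lies 94.6% within sequence of the other copies, read 14, 36 and 7 counts in saline mice and 86026, 82558 and 83176 in PD mice. Its ratio was 4317 (3332 to 5700), or 8161 without saline mouse 2, which held most of its saline counts. The groups did not overlap in any of the 5 amylase rows, beside 34.0% of tested genes that were separated with PD mice higher. This follows from how the list was chosen.

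PD mouse 3 stood apart within the amylases. Its Amy2a5 count was above, and its Amy2a2 count below, those of the other PD mice. Amy2a5 was 0.828 and 0.892 times Amy2a2 in PD mice 1 and 2 and 2.05 times in PD mouse 3. The sum over Amy2a2 to Amy2a5 hid this difference, at 313210, 310861 and 301618 counts in PD mice 1 to 3. In saline mice, Amy2a5 was 28, 33.7 and 26 times Amy2a2, so that the few amylase counts there sat mostly in the Amy2a5 row. Reads from sequence that the copies share can be placed in either row, and the values of single copies are therefore uncertain. Their sum would not depend on the placement among these rows if each read was counted once, which is not known here. It also leaves out Amy2a1 and Amy2b, which share sequence with these rows.

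**Figure D2:**
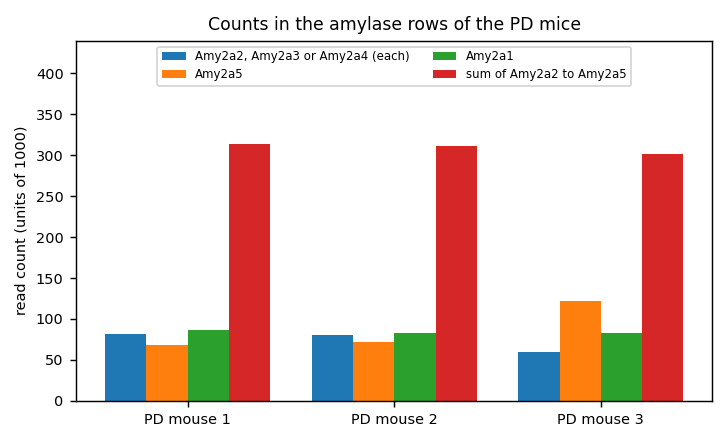
Deposited read counts of the amylase rows (axis in units of 1000 counts) in each PD mouse, with bars for any of the 3 identical rows, Amy2a5, Amy2a1 and the sum of Amy2a2 to Amy2a5. The Amy2a5 bar exceeds the Amy2a2 bar in PD mouse 3 (122512 against 59702) and not in the others, while the sum stays between 301618 and 313210.

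Elastases, serine proteases of the pancreatic juice, differed widely among themselves. Cela2a read 7, 21 and 6 counts in saline mice and 61967, 61658 and 63677 in PD mice, a ratio of 5384 (3853 to 7775), or 9808 without saline mouse 2. Its transcript shares 21.7% of its 100-base windows with Ctrc, so part of its counts may belong to that gene. Cela1 had 29, 53 and 56 counts in saline mice, more than any other protease, and 10465, 8646 and 7624 in PD mice, which gave a ratio of only 189 (160 to 225). Cela3b had 0, 0 and 5 counts in saline mice and 5567, 5110 and 4756 in PD mice, a ratio of 3017 (1292 to 9292). Every saline count of Cela3b came from saline mouse 3. The ratio was 1935 without saline mouse 1, and without saline mouse 3, against 3 counts over the other saline mice, the level in PD mice was at least 3328-fold higher. Cela3a, its neighbour on chromosome 4, had 0 counts in all saline mice and 0, 2 and 0 in PD mice, and no ratio is given because both groups were at or under 3 counts in total.

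Chymotrypsins, which cut after aromatic residues, showed the same split between saline and PD mice. Ctrb1 had 0, 7 and 2 counts in saline mice and 14765, 12623 and 10935 in PD mice. The ratio was 4162 (2192 to 9102), and it lay at 2670 without saline mouse 1 and 13043 without saline mouse 2. Ctrl, a chymotrypsin-like protease, had 15, 12 and 11 counts in saline mice and 10391, 9893 and 9179 in PD mice. Its ratio of 758 (552 to 1071) was therefore lower than that of Ctrb1 mainly through its higher counts in saline mice.

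Trypsins, which activate the other zymogens once enterokinase has activated them, were led by Prss2. It had 13, 10 and 9 counts in saline mice and 21687, 19635 and 18858 in PD mice, a ratio of 1838 (1302 to 2687). Try4 had 2, 5 and 1 counts in saline mice and 11868, 10700 and 9627 in PD mice, with a ratio of 3933 (1996 to 9111), or 7305 without saline mouse 2. Try5 had 4, 4 and 3 counts in saline mice and 6597, 6188 and 5576 in PD mice, a ratio of 1631 (912 to 3269). The other members of this cluster on chromosome 6 were far lower. Try10 and Prss3 were at 0 in all saline mice and between 48 and 74 counts in the PD mice, so they were at least 60.6-fold and 58.6-fold higher, respectively. Prss1 had 0 counts in 5 mice and 1 count in PD mouse 1, so that no ratio can be given. Of the 38 genes, 14 share at least one 100-base stretch of transcript with another gene, and 4 of them, all amylases, share more than 50% of such stretches. The trypsins other than Prss2 share from 11.6% (Try10) to 45.0% (Prss3), with Try4 at 30.2% and Try5 at 25.6%. Part of their counts may therefore belong to related genes.

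The carboxypeptidases, which remove residues from the carboxyl end of peptides, were high in all 3 PD mice, with raw counts that were alike. Scaled to library size they differed more between PD mice 1 to 3. Cpa1 stood at 474, 530 and 553 CPM and Cpb1 at 873, 989 and 1066 CPM. Cpa1 had 1, 6 and 1 counts in saline mice and 12877, 12634 and 12197 in PD mice, a ratio of 4607 (2338 to 10671), or 12834 without saline mouse 2. Cpb1 had 2, 11 and 5 counts in saline mice and 23715, 23581 and 23521 in PD mice, a ratio of 3845 (2433 to 6488), or 6887 without saline mouse 2. Saline mouse 2 was the highest saline mouse for both, as it was for the summed acinar counts.

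Of the 6 lipases and their helpers, 5 had a PD mean of at least 1000 counts. Pancreatic triglyceride lipase Pnlip had 2, 8 and 1 counts in saline mice and 14229, 13408 and 12002 in PD mice, a ratio of 3522 (1968 to 7056), or 8994 without saline mouse 2. Its cofactor colipase, Clps, had 2, 3 and 2 counts in saline mice and 9116, 8111 and 8468 in PD mice, a ratio of 3588 (1741 to 8924). Enzyme and cofactor thus had ratios whose intervals overlapped almost completely. Carboxyl ester lipase, Cel, had 3, 10 and 9 counts in saline mice and 27557, 23912 and 22663 in PD mice, a ratio of 3293 (2175 to 5255). The lipase-related protein Pnliprp1 had 2, 3 and 1 counts in saline mice and 9670, 9420 and 8756 in PD mice, a ratio of 4536 (2084 to 12361). The related Pnliprp2 was about an order of magnitude less abundant in counts. It had 2, 1 and 0 counts in saline mice and 1166, 1043 and 1098 in PD mice, a ratio of 1077 (368 to 5227), which was 2074 without saline mouse 1 and 713 without saline mouse 3. The secreted phospholipase Pla2g1b was at 0 in all saline mice and between 317 and 325 counts in PD mice, at least 315-fold higher.

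Among the other secreted and granule proteins, ratios ran from 61.6 to 5192 for genes with a PD mean of at least 1000 counts. Rnase1, the pancreatic ribonuclease, had 7, 2 and 6 counts in saline mice and 11395, 11166 and 11091 in PD mice, a ratio of 2193 (1329 to 3918). The secreted lectin Reg1 had 1, 0 and 2 counts in saline mice and 5402, 5374 and 5161 in PD mice, a ratio of 5192 (1776 to 25179), or 10311 without saline mouse 3. Its relative Reg2, on the same stretch of chromosome 6, had 33, 26 and 24 counts in saline mice and only 1888, 1747 and 1594 in PD mice, a ratio of 61.6 (49.6 to 77.4). The intervals of these neighbours did not overlap.

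Zymogen granule proteins were divided in the same way. Syncollin, Sycn, had 0, 0 and 3 counts in saline mice and 3302, 3062 and 2882 in PD mice, a ratio of 3012 (1030 to 14609), with every saline count in saline mouse 3. It was 1933 without saline mouse 1 and at least 1994-fold without saline mouse 3. Gp2, the main glycoprotein of the granule membrane, had 22, 34 and 26 counts in saline mice and 5523, 5436 and 5843 in PD mice, a ratio of 200 (161 to 252). Zg16, a granule lectin also made by intestinal goblet cells, had 12, 3 and 15 counts in saline mice and 1400, 1358 and 1274 in PD mice, a ratio of 131 (91.9 to 195). The 3 genes of this class under 1000 counts were between 86 and 1025 counts in PD mice. Of these, Klk1, tissue kallikrein, had a ratio of 94.0 (65.3 to 141), Cuzd1, with a single count over the saline mice, had a ratio of 2215 (397 to 87514), 1466 without saline mouse 3 and at least 474-fold without saline mouse 1, and the trypsin inhibitor Spink1 was at 0 in all saline mice and at least 93.5-fold higher in PD mice.

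The transcription factors of the acinar cell were present at low counts. Bhlha15, which drives the secretory architecture of the cell, had 8, 11 and 20 counts in saline mice and 172, 95 and 87 in PD mice, a ratio of 8.87 (6.36 to 12.7). Its fitted log2 fold change of 3.11 (SE 0.36) was the lowest of the 34 tested genes. Rbpjl had 2, 2 and 0 counts in saline mice and 70, 57 and 30 in PD mice, a ratio of 38.4 (14.7 to 143), or 25.4 without saline mouse 3. PD mouse 1 was the highest for both, and the groups did not overlap.

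Ptf1a, the factor that defines the acinar lineage, was at 0 in all saline mice and at 3, 4 and 7 counts in PD mice, at least 4.56-fold higher. Nr5a2, a nuclear receptor that binds enzyme gene promoters, had 2, 8 and 9 counts in saline mice and 9, 24 and 12 in PD mice. Its ratio was 2.31 (1.33 to 4.19), and saline mouse 3 equalled PD mouse 1, so the groups overlapped. Without the filter on low counts Ptf1a was called higher and Nr5a2 was not, and Cela3a and Prss1 were not either.

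The sequences upstream of the acinar genes were scanned for letters that acinar regulators are known to bind. RefSeq held windows for 33 of the 38 genes, in 34 entries of which 32 were distinct sequences. Clps, Spink1, Try10, Try5 and Zg16 had no entry. On either strand, CACCTG was found in 17 of the 34 entries (50%), beside 17.2% of all 32851 windows of the same 250-base length. CAGCTG was found in 17.6% of entries against 13.0% of all windows, and TTTCCC in 26.5% against 21.9%. Windows that held TTTCCC together with either E-box, the elements of a PTF1 site irrespective of their spacing, made up 20.6% of entries and 5.91% of all windows. The nuclear receptor half-site letters AAGGTCA were found in 11.8% against 4.08%, and TATAAA in 32.4% against 12.4%. A match is a description of letters, not a binding site. Of the genes with the highest levels outside the amylases, Cela2a and Prss2 each hold CACCTG and TTTCCC, and they are printed with the windows of Rbpjl and Bhlha15, which hold CACCTG without TTTCCC.
Cela2a (chr4:141826006-141826255, minus strand): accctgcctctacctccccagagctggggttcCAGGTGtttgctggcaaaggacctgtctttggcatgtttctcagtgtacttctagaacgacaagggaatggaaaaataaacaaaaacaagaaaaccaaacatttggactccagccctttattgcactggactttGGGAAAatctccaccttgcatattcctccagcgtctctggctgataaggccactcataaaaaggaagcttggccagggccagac
Prss2 (chr6:41521526-41521775, plus strand): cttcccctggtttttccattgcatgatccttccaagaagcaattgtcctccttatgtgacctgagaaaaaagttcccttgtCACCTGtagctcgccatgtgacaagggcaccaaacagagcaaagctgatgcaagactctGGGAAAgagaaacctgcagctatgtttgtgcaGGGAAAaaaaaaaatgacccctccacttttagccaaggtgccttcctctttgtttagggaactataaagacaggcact
Rbpjl (chr2:164402944-164403193, plus strand): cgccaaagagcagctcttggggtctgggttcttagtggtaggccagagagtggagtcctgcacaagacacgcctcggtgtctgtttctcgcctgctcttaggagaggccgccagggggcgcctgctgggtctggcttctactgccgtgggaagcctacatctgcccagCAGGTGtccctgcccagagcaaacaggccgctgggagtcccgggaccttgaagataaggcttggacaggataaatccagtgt
Bhlha15 (chr5:144190036-144190285, plus strand): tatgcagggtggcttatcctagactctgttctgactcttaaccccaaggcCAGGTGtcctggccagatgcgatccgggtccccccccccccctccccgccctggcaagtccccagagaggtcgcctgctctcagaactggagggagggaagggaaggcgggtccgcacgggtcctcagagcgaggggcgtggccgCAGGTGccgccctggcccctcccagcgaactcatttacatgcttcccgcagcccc
The Bhlha15 window holds CACCTG 2 times, in both places as CAGGTG, and the Prss2 window holds TTTCCC 2 times. The amylase windows above hold neither CACCTG nor TTTCCC.

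Levels of different genes were compared per transcript length, by FPKM (fragments per kilobase of transcript, scaled to the sequencing depth). In PD mice, 9 of the 38 genes were among the 100 genes with the highest mean FPKM of the whole table, against 0 in saline mice. Amy2a1 was the highest at 3900 ± 235 FPKM (SD, n = 3), rank 12 of all genes, which depends on its short annotated transcript. It was followed by Cela2a at 2417 ± 219 FPKM and Prss2 at 1015 ± 7.75. Amy2a5 (986 ± 414) could not be ordered against Prss2 or the identical amylase rows (816 ± 97.6 each), since it ranged from 691 to 1459 FPKM between the PD mice. The next genes, Ctrb1 (598 ± 43.6), Clps (579 ± 29.8) and Try4 (552 ± 17.2), had overlapping ranges over the PD mice. Likewise Cel (493 ± 11.4), Rnase1 (468 ± 30.0) and Ctrl (461 ± 12.5) followed, and the range of Rnase1 overlapped those of both others. In all, 24 genes had a PD mean of at least 100 FPKM. The transcription factors stood at the foot of the order, with Bhlha15 at 1.37 ± 0.430, Rbpjl at 0.866 ± 0.286, Nr5a2 at 0.198 ± 0.132 and Ptf1a at 0.131 ± 0.0670 FPKM. In saline mice the highest mean of any of the 38 genes was 2.04 FPKM, for Cela1, and Reg2 at 1.66 was the only other one at 1 or above.

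**Figure D3:**
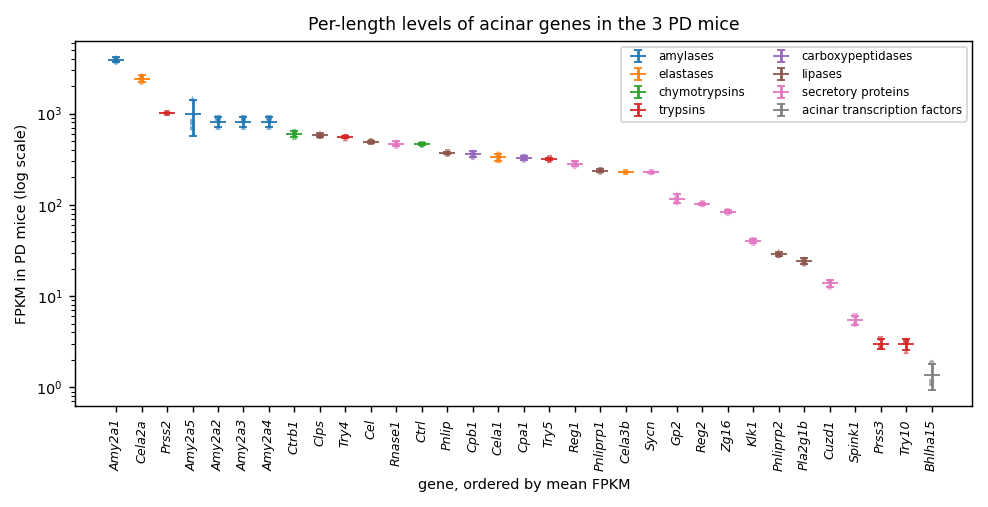
FPKM in PD mice, on a log axis, of the acinar genes with a mean of at least 1, ordered by mean and coloured by class, with dashes and bars for mean and SD (n = 3) and small markers for each mouse. Levels run from 3900 FPKM for Amy2a1 to 1.37 for Bhlha15, and the wide bar is Amy2a5.

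With every row counted, the make-up of the acinar counts was nearly the same in each PD mouse and different in the saline mice. Amylases held 60.2% ± 0.712 (SD, n = 3) of the acinar counts in PD mice, elastases 11.7% ± 0.234, lipases 8.76% ± 0.423, trypsins 5.67% ± 0.303, carboxypeptidases 5.55% ± 0.0980, secretory proteins 4.61% ± 0.0383, chymotrypsins 3.46% ± 0.284 and transcription factors 0.0290% ± 0.00824. With the identical amylase rows counted once, the amylase part was 48.5% and the acinar share of the PD libraries 2.09%. That share was then 1.93%, 2.06% and 2.28% in PD mice 1 to 3. The evenness of the amylase part rests in part on counting those rows separately. In PD mouse 3 each of them was lower, and Amy2a5 higher, than in the other PD mice. In saline mice amylases held 29.5% ± 7.44, secretory proteins 27.2% ± 8.38, elastases 18.6% ± 4.72 and transcription factors 6.64% ± 2.94. Those shares rest on 263 to 392 counts a mouse. The 5 genes with the most saline counts, Amy2a5, Cela1, Reg2, Gp2 and Amy2a1, held 60.2% (exact 95% interval 57.0 to 63.3) of all 945 acinar counts of the saline mice and 28.7% of the 1956731 acinar counts of the PD mice. Cela1 alone was 14.6% (12.4 to 17.0) of the saline counts and 1.37% of the PD counts, and Reg2 8.78% (7.06 to 10.8) and 0.267%. Amy2a1 went the other way, at 6.03% (4.60 to 7.74) of the saline counts and 12.9% of the PD counts. These 5 genes were picked for their saline counts, which favours a higher saline share, and nothing is read from the difference.

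**Figure D4:**
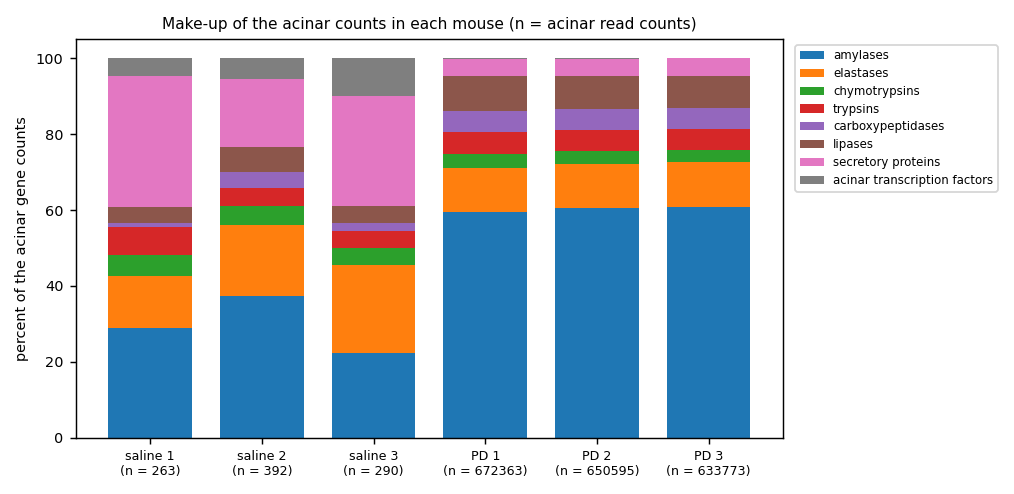
Percent of each mouse's acinar gene counts that fell in each class, with the number of acinar counts under each bar. With every row counted, the PD bars are almost the same, with amylases at 60.2% on average. The saline bars, which rest on 263, 392 and 290 counts, hold a larger percentage of secretory protein and transcription factor counts.

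The spread between PD mice was modest for most genes. Among the 30 genes with a PD mean of at least 100 counts, the coefficient of variation (CV) of CPM had a median of 7.68%, from 1.19% for Cel to 44.6% for Amy2a5. Genes of similar count (within 2-fold) had a median CV of 5.13%, and 12 of the 30 lay below the median of their own such group. PD mouse 3 was the highest by CPM for 19 of the 30 genes, PD mouse 2 for 8 and PD mouse 1 for 3. PD mouse 1 was the lowest for 21, and without it the median CV was 3.42%. Scaled by total counts alone, the highest mouse was PD mouse 3 for 13 genes, PD mouse 2 for 12 and PD mouse 1 for 5, and the median CV was 5.84%. Gp2 (13.4%) and Cela2a (11.7%) varied more than Try4 (1.61%) and Cela3b (2.76%).

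Genes outside the list that acinar cells also use were examined next, with p adjusted over all 14005 genes by Benjamini-Hochberg in edgeR's quasi-likelihood test. Of 26 other acinar products and receptors, 25 were tested, 21 were higher in PD mice and none was lower, beside 31.1% and 27.8% of all tested genes, and their median log2 fold change was 4.21. This list was also written with earlier results of these libraries known. Dmbt1, a mucin-like secreted scavenger protein, rose from 1, 4 and 1 counts in saline mice to 6230, 5771 and 5536 in PD mice, by a log2 fold change of 11.40 (SE 0.18, edgeR adjusted p = 1.9e-12). Serpini2, a pancreatic serine protease inhibitor, had 0 counts in all saline mice and 304, 336 and 315 in PD mice, at least 311-fold higher (edgeR adjusted p = 8.3e-08). Reg3a, an antimicrobial lectin, had 0 counts in saline mice and 184, 170 and 177 in PD mice, at least 173-fold higher (edgeR adjusted p = 3.1e-07). Cckar, the cholecystokinin receptor through which acinar secretion is stimulated, was singled out after its values were seen. It had 0 counts in all saline mice and 122, 81 and 93 in PD mice, at least 96.4-fold higher (edgeR adjusted p = 2.7e-06). The tested genes that were not called were Vamp8, Chrm3, Syt7 and Itpr3, of which Vamp8 was called lower without PD mouse 3 (edgeR adjusted p = 0.018). Across the whole table, 91 genes (0.65% of those tested) were called with a fitted log2 fold change of at least 5, or 74 with genes at 0 in saline mice set at their lower bound. By either count 33 of them were on the acinar list, a number that the choice of the list fixes, and 12 were other acinar products.

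Factors that act in other pancreatic cells too were mostly too low to test. Of 13 such transcription factors 4 were tested. Among these, 3 were higher and none lower in PD mice, beside 31.1% and 27.8% of all tested genes. Sox9, a duct and progenitor factor, had 0, 2 and 2 counts in saline mice and 30, 13 and 18 in PD mice, a log2 fold change of 3.76 (SE 0.71, edgeR adjusted p = 0.0010). Gata6 changed by 1.48 (SE 0.27, edgeR adjusted p = 7.8e-04) and Xbp1, the factor of the unfolded protein response, by 0.52 (SE 0.06, edgeR adjusted p = 2.4e-05). Pdx1 had 0 counts in 5 mice and 4 in PD mouse 1.

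Markers of other cells that could lie beside acinar cells in the tissue moved in part. Of 10 duct genes 9 were tested, 6 of them higher and 1 lower in PD mice, beside 31.1% and 27.8% of all tested genes. Muc1, a mucin of duct cells named after its values were seen, was among the 6 at an edgeR adjusted p of 0.047 and lost its call under 8 of 11 alternatives, with adjusted p from 0.060 to 0.16 by the tool of each, which left 5. Krt7 rose by 3.71 (SE 0.39, edgeR adjusted p = 1.5e-05) and Krt19 by 3.66 (SE 0.19, edgeR adjusted p = 5.2e-08), both keratins of duct and mesothelial cells. The secreted phosphoprotein Spp1, also made by macrophages, rose by 3.18 (SE 0.11, edgeR adjusted p = 2.6e-09). Car2, a carbonic anhydrase, fell by 0.24 on the log2 scale (SE 0.08, edgeR adjusted p = 0.030), a call that was lost without saline mouse 2, PD mouse 1 or PD mouse 2. Cftr, the chloride channel of duct cells, had 0 counts in saline mice and 5, 6 and 0 in PD mice. Summed duct counts ranged from 124 to 141 CPM in saline mice and from 244 to 278 CPM in PD mice.

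Islet genes were close to the floor. Of 16 islet genes only Chgb and Pcsk1 had enough counts to test. Chgb, a granin of endocrine granules, rose by 2.40 (SE 0.62, edgeR adjusted p = 0.0066), from 2, 1 and 6 counts to 15, 22 and 13, and Pcsk1 was not called. Ins1, Ins2, Iapp, G6pc2, Nkx2-2 and Neurod1 were at 0 in all 6 mice, the glucagon gene Gcg was at 13, 3 and 7 counts in PD mice and 0 in saline mice, and the pancreatic polypeptide gene Ppy was at 0, 4 and 0 in saline mice and 8, 36 and 29 in PD mice. The summed islet counts ranged from 4.14 to 4.61 CPM in saline mice and from 5.59 to 8.22 CPM in PD mice. Pcsk1 alone gave 3.44 to 3.87 CPM in saline mice, most of each saline sum, and 2.80 to 3.76 CPM in PD mice.

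Other tissues that secrete amylase or digestive products were checked in the same way. Of 10 salivary genes, 8 were at 0 in all 6 mice, and Amy1, the amylase of salivary gland and liver, rose by 1.72 (SE 0.34, edgeR adjusted p = 0.0013) and was the only one tested. Its counts were 31, 58 and 30 in saline mice and 158, 89 and 158 in PD mice. In the PD mice this was far below the Amy2a rows. In the saline mice Amy1 was below Amy2a5 (56, 101 and 52 counts) but above the other Amy2a rows. Amy2a1 read 14, 36 and 7 counts there, and Amy2a2, Amy2a3 and Amy2a4 read 2, 3 and 2 each. Of 8 gastric chief and Paneth cell genes the only one tested was Lyz1, which rose by 0.66 (SE 0.07, edgeR adjusted p = 2.7e-05). It was abundant in both groups, at 2476 to 2776 counts in saline mice and 4009 to 4415 in PD mice. The other 7 had 12 counts or fewer in every mouse, so Lyz1 does not stand for the list. Of 10 genes of the intestinal epithelium 6 were tested. Among these, 4 were higher and 2 lower in PD mice, beside 31.1% and 27.8% of all tested genes. Apoa4, an apolipoprotein of enterocytes, rose by 6.33 (SE 0.31, edgeR adjusted p = 3.3e-08), from 2 counts in each saline mouse to 199, 187 and 139. The disaccharidase Sis and the fatty acid carrier Fabp2 were at 0 in saline mice and at least 23.1-fold and 21.2-fold higher in PD mice, at 13 to 30 counts, while the cadherin Cdh17 fell by 0.86 (SE 0.16, edgeR adjusted p = 9.1e-04) and Fabp1 by 0.57 (SE 0.16, edgeR adjusted p = 0.0091) on the log2 scale. Summed intestinal counts were 33.4 to 38.8 CPM in saline mice and 27.7 to 35.9 CPM in PD mice. Most of each sum came from the genes that fell, Cdh17 (mean 28.4 CPM for saline, 15.7 CPM for PD) and Fabp1 (7.14 and 4.83 CPM). The sums therefore do not show the rise of the 4 higher genes, each of which had 2 counts or fewer in every saline mouse. The part of these cells in the acinar values was not tested.

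The remaining lists were markers of endothelial cells and of plasma cells. All 12 endothelial genes were tested, 11 were higher in PD mice and none was lower, beside 31.1% and 27.8% of all tested genes. Their median log2 fold change was 0.96. Tie1 (1.65, SE 0.17), Robo4 (1.55, SE 0.20) and Flt1 (1.46, SE 0.07) changed the most, with edgeR adjusted p of 1.4e-05, 8.0e-05 and 2.4e-08. Pecam1, the gene of the antigen used in the sort, was not called (0.13, SE 0.06, edgeR adjusted p = 0.070), but it was called higher without saline mouse 2 (edgeR adjusted p = 0.028). Plasma cell genes mark another secretory cell with much endoplasmic reticulum. Of 9 such genes 4 were higher and 4 lower, beside 31.1% and 27.8% of all tested genes. The largest changes there were those of Prdm1 (0.95, SE 0.13), Jchain (0.86, SE 0.07) and Pou2af1 (-0.81, SE 0.07), with edgeR adjusted p of 1.2e-04, 3.5e-06 and 4.2e-06.

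**Figure D5:**
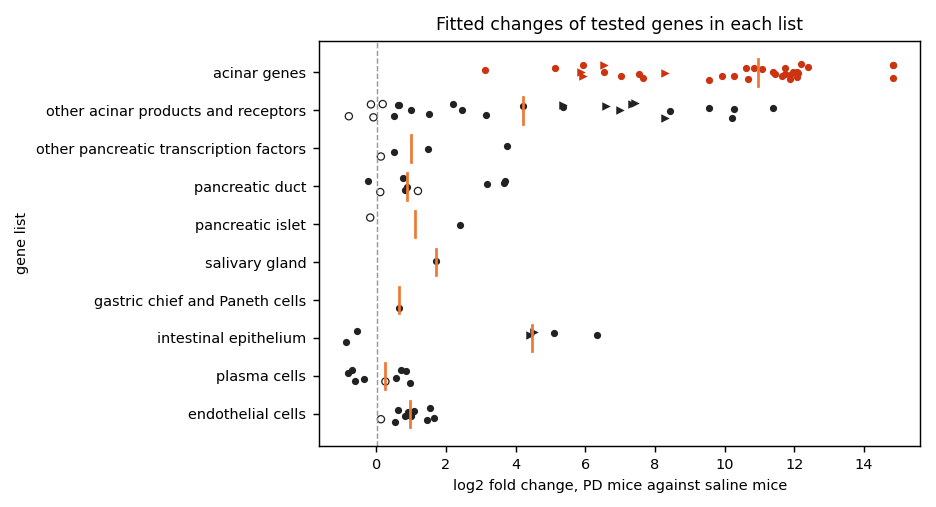
Log2 fold change, PD mice against saline mice, of every tested gene in each list (rows), with filled points for called genes, open points for genes that were not called, triangles at the lower bound of genes with 0 counts in all saline mice, orange bars for list medians and a dashed line for the median of all tested genes. Acinar genes (red) run from 3.11 to 14.84, and of the other lists those of other acinar products and of the intestinal epithelium reach above 5.

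Of the genes in no list, the 10 with the largest fitted increases among those called and separated between the groups included 2210010C04Rik, B430305J03Rik, Camp, Ltf, Klk1b5, Itgb2l, Cxcl5, Ngp and Slc39a5. 2210010C04Rik, at chr6:41030268-41035509 near the trypsin genes, had 3, 0 and 4 counts in saline mice and 4103, 3577 and 3287 in PD mice, a log2 fold change of 10.51 (SE 0.20, edgeR adjusted p = 1.1e-11). Klk1b5, a kallikrein next to Klk1 on chromosome 7, had 0 counts in saline mice and 45, 56 and 48 in PD mice, at least 48.5-fold higher (edgeR adjusted p = 2.4e-05). Its relative Klk1 shares 6.08% of its 100-base windows with Klk1b5 and a further kallikrein. Of the rest, 3 encode proteins of neutrophil granules. Ngp rose by 8.40 (SE 0.16, edgeR adjusted p = 1.2e-11), Camp by 9.14 (SE 0.31, edgeR adjusted p = 2.0e-09) and Ltf by 8.90 (SE 0.35, edgeR adjusted p = 5.8e-09). All saline counts of Ltf lay in saline mouse 1. These 3 genes were picked by the size of their change and no fixed list of neutrophil genes was examined.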

How the data were processed

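Sorted peritoneal ECs were sequenced from 6 mice, 3 per treatment as the labels give it. Raw, unnormalised read counts per mouse were deposited by the authors for 22183 genes. The counts are whole numbers and may be rounded estimates, since RSEM is among the tools in the submitters' processing notes (with fastp 0.18.0, Bowtie2 2.2.8, HISAT2 and StringTie 1.3.1, whose roles are not given). The genome build is not given in the sources used here, and no strand setting is stated. Beside them stand FPKM values per mouse, normalised for gene length and depth by the authors. Group mean FPKM, log2 fold changes, p-values and FDR from the authors' own comparison were not used. The table had 0 columns of sample values without a sample. Totals ranged from 21973426 to 26374292 counts.

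Genes were filtered with filterByExpr in edgeR 4.0.16 (R 4.3.3, limma 3.58.1), scaled by TMM and compared between PD fluid and saline by the quasi-likelihood test, without covariates, with Benjamini-Hochberg adjustment and a threshold of 0.05. The study's methods name limma, and edgeR was used because the values are counts. SEs were derived from the F statistic. The fit was tested on simulated data. Counting, ratios and sequence scans used scipy 1.17.1, pandas 2.3.3 and numpy 2.4.6 under Python 3.11.15. CPM used TMM-scaled library sizes, shares used total counts, and intervals are at the 95% level. Positions came from GENCODE M21 by Ensembl identifier, which matched 22128 of 22183 genes, and a symbol was never used for this. The members and all lists were chosen with earlier results of these data known. The acinar genes with a PD mean of at least 1000 counts, with identical rows, coding for transcription factors or not higher in PD mice are given in every mouse. Other lists are represented by up to 3 called genes of largest absolute change, and unlisted genes by the 10 largest increases among called genes whose groups did not overlap and whose mean count reached 10, of which 1 is not reported here. Ratios without single saline mice and list medians with lower bounds were added after seeing the data. Replicates differed by more than sampling noise in every pair. By the study's methods the libraries came from separate mice, so p-values measure the spread between mice together with that of sample handling. Alternatives were DESeq2 1.42.0, upper-quartile scaling, scaling without the acinar genes, no filter on low counts, a replicate block, leaving out each mouse, identical rows counted once and sums of FPKM.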

Additional observations from a re-analysis of the deposited data

How the results depend on the processing

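Every alternative kept all 34 tested acinar genes called higher in PD mice. All 715 refits of the 65 genes taken by the rule for named genes, 374 of them of acinar genes, kept their direction and call. Acinar genes were chosen with this contrast known and the others for large called changes, which favours such stability. Of the 12 tested genes named beside these 65, Muc1 changed its call in 8 of 11 alternatives, Car2 in 3, and Pecam1 and Vamp8 in 1 each. The duct list had 5 genes called higher, against 6, wherever Muc1 lost its call. The median of all genes moved by less than 0.1 on the log2 scale under each scaling. The acinar share of the PD libraries was 2.09% with identical rows counted once and 3.02% as a share of summed FPKM, against 2.70%, and amylases made up 48.5% and 43.1% of the acinar signal in PD mice in those settings, against 60.2%. By summed FPKM the saline values were 0.00185% for the share and 16.1% for amylases. Without the filter on low counts, 6 other pancreatic transcription factors (against 3), 6 islet genes (against 1) and 2 gastric or Paneth genes (against 1) were called higher, because genes with few counts then entered the test. Leaving out 1 mouse gave 1 to 3 islet genes, with 2 without saline mouse 1 and 3 without saline mouse 2, saline mouse 3 or PD mouse 1. The median CV of acinar genes between PD mice ranged from 3.42% to 7.68%, the former without PD mouse 1. The count of all genes called ranged from 6996 to 8018 when 1 mouse was left out.

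With the replicate number as a block, 7909 genes were called in all, 34 acinar genes were called higher, and no count of calls moved by over 1.5 times. The numbers are not known to pair the mice: the deviations of same-numbered mice correlated at 0.10, 0.04 and -0.17, and not every mouse correlated best with its own number. Ratios of 9 of the 27 acinar genes with more than 3 saline counts, and of all 4 genes with 1 to 3, moved by over 1.5 times when a saline mouse was left out. The cause was not tested.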
